A study of Mus musculus with 13 samples.

Results

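The core circadian clock is a loop of transcription factors that nearly every mammalian cell carries. Heterodimers of ARNTL (also called BMAL1) with CLOCK or its paralog NPAS2 bind E-box elements and drive the Period, Cryptochrome and Rev-erb genes. PER and CRY proteins then inhibit the heterodimer, and the Rev-erb nuclear receptors NR1D1 and NR1D2 repress Arntl, Npas2 and Nfil3 at ROR elements. In mouse peripheral tissues, the lung among them, Arntl and Npas2 transcripts are known to peak near the end of the night, Nr1d1 by day, the Period transcripts around the change to night, and Cry1 last.

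The 10 genes described here, Arntl, Npas2, Clock, Nr1d1, Nr1d2, Per1, Per2, Per3, Cry1 and Cry2, were taken by symbol from the 54513 symbols of the deposited count table. All 10 were found and passed the filter on low counts, with 12 to 5377 counts per library. The lowest count was 12 for Npas2 and 30 for Arntl, and the other members had at least 74. Total RNA was measured in 13 libraries from formalin-fixed lung sections of male C57Bl/6 mice aged 7 to 8 weeks, at day 21 after dosing. The groups were batch 2 bleomycin (4 libraries, bleomycin replicates 1 to 4), batch 1 bleomycin (4 libraries, replicates 5 to 8) and batch 1 saline (5 libraries). Bleomycin is a DNA-damaging drug used to produce lung fibrosis in mice. The sources used here give neither what distinguishes the batches nor the time of day at which lungs were collected. Saline is held by batch 1 alone, so batch 2 and the drug can be compared with saline only together.

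Libraries of batch 2 bleomycin were shallower than those of batch 1 bleomycin, with total counts of 6337147 to 12982422, against 21727502 to 28885129 for batch 1 bleomycin and 9527580 to 26043735 for saline. The labels do not tie libraries to animals, and p-values therefore cover the spread among these 13 libraries alone. Bleomycin replicate 8 has a title that says control, while its treatment label and library name say bleomycin. It was kept in the bleomycin group, and results are also given without it. Levels are CPM, counts rescaled to a common library total after TMM normalization. Each change is a log2 change with its SE from edgeR's quasi-likelihood test, with p adjusted by Benjamini-Hochberg over 20468 genes and a threshold of 0.05.

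In batch 1, bleomycin libraries held more transcript of the activators and less of most repressors than saline libraries. Of the 10 members, 9 passed the test, 3 higher and 6 lower, where 30.9% of all tested genes passed, 17.5% higher and 13.4% lower. The exception was Per1. The median change of the members was -0.95, against 0.03 over all tested genes. In 7 members the batch 1 bleomycin and saline libraries did not overlap, as was the case for 25.3% of all tested genes. By p, Nr1d2 stood 13th and Arntl 16th of the 20468 genes. These are bulk samples, in which fewer cells of a type and less RNA per cell cannot be told apart. Treatment and time of collection cannot be told apart either, since no label gives a time.

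**Figure D1:**
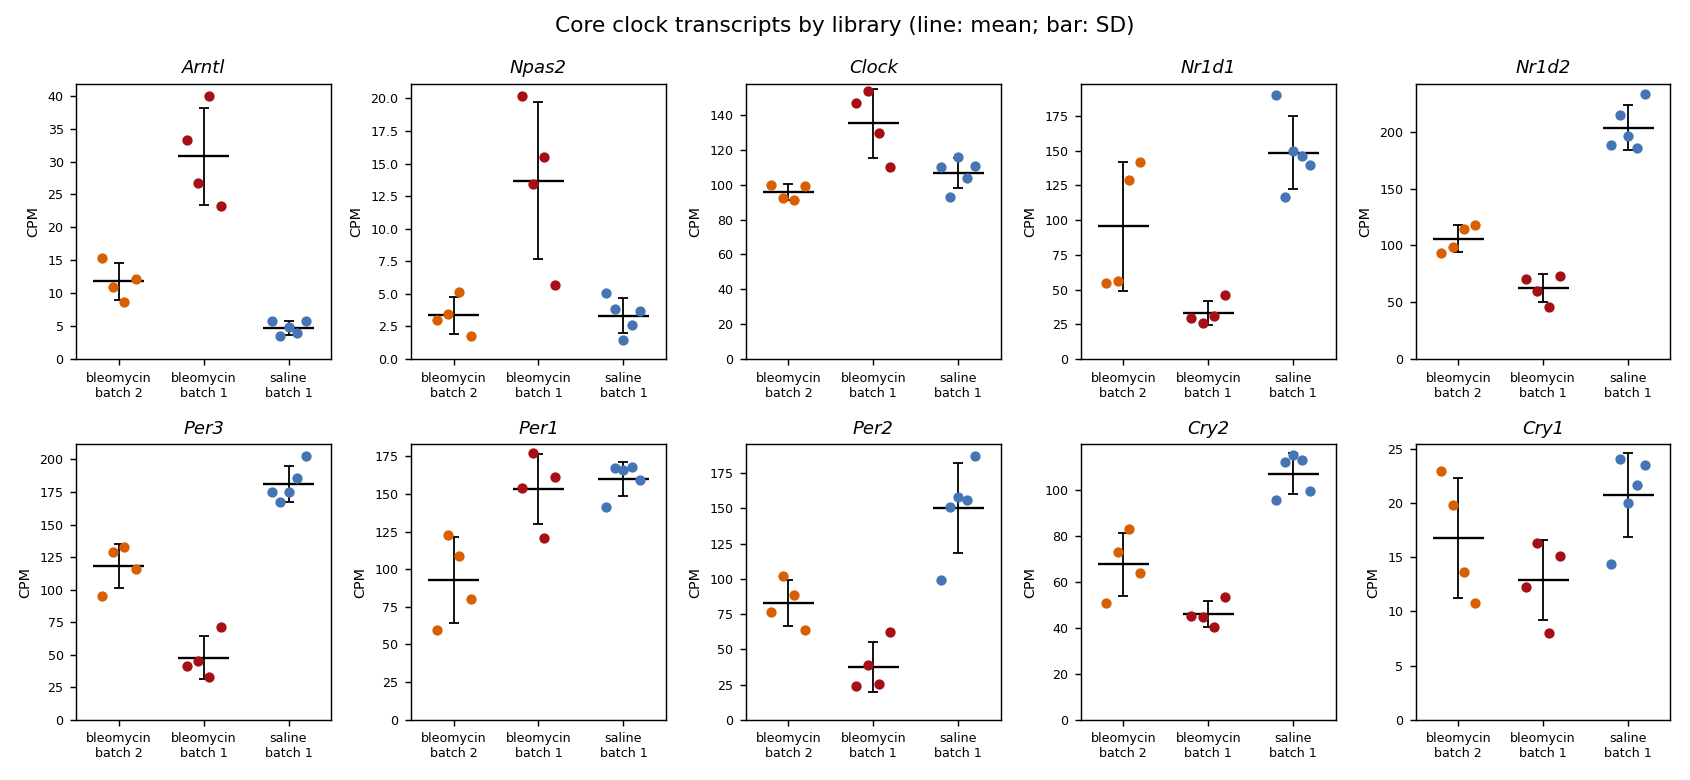
Level of each core clock gene in CPM (y axis, from 0) in the 4 batch 2 bleomycin, 4 batch 1 bleomycin and 5 saline libraries. Points are libraries, the line is the group mean and the bar the SD. Arntl and Npas2 are highest in batch 1 bleomycin, while the means of Nr1d1, Nr1d2, Per2 and Per3 are lowest there and highest in saline.

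Arntl, the obligate partner in the activating heterodimer, was at 15.3, 10.9, 8.71 and 12.2 CPM in the batch 2 bleomycin libraries, at 33.2, 26.8, 40.0 and 23.2 CPM in the batch 1 bleomycin libraries and at 5.75, 3.48, 4.89, 3.90 and 5.81 CPM in the saline libraries. No library of any group reached into the range of another. The group means were 11.8 ± 2.74, 30.8 ± 7.41 and 4.77 ± 1.06 CPM in batch 2 bleomycin, batch 1 bleomycin and saline libraries (SD, n = 4, 4 and 5). Arntl was 6.40-fold higher in batch 1 bleomycin than in saline (log2 change 2.68 ± 0.21, adjusted p = 7.78e-07). In batch 2 bleomycin it was 2.43-fold higher than in saline (1.28 ± 0.21, adjusted p = 0.000377).

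Npas2, which can stand in for CLOCK, was at 2.99, 3.47, 5.16 and 1.76 CPM in batch 2 bleomycin, at 20.2, 13.4, 15.5 and 5.69 CPM in batch 1 bleomycin and at 5.03, 3.83, 1.46, 2.58 and 3.68 CPM in saline libraries. All 4 batch 1 bleomycin libraries lay above every other library, and replicate 8 lay closest to saline. The change against saline was 2.05 ± 0.39 in batch 1 (adjusted p = 0.00108), and 0.05 ± 0.41 in batch 2 bleomycin (adjusted p = 0.942). Clock, the more abundant partner of ARNTL, was at 99.8, 92.4, 91.1 and 99.4 CPM in batch 2 bleomycin, at 147, 154, 130 and 110 CPM in batch 1 bleomycin and at 110, 92.9, 116, 104 and 111 CPM in saline libraries. The means were 95.7 ± 4.56, 135 ± 19.8 and 107 ± 8.73 CPM in batch 2 bleomycin, batch 1 bleomycin and saline libraries. Batch 1 bleomycin and saline overlapped, with a change of 0.34 ± 0.10 (adjusted p = 0.0152). That call was lost without bleomycin replicate 6 (adjusted p = 0.0601), saline replicate 2 (0.081) or saline replicate 4 (0.0641). Without replicate 8 the batch 1 changes were 2.76 for Arntl, 2.28 for Npas2 and 0.40 for Clock, and all 3 passed.

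The Arntl promoter is shown because Rev-erb and ROR receptors act on it. The search covered the ROR element core (TAGGTCA or TGGGTCA) in RefSeq windows of 250 bases before to 50 after the start on GRCm38.p6, on both strands. RefSeq gives a pair of starts for Arntl, and the window below, of the second, is at chr7:113207261-113207560 on the plus strand, with the match in capitals, 31 bases after the start.
Arntl: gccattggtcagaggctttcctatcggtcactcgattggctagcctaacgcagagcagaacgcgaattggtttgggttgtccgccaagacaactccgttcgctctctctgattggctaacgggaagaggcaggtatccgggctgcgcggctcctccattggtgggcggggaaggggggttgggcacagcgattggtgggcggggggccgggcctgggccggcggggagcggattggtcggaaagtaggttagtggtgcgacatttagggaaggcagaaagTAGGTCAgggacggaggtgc
The window of the first Arntl start held no core, and neither did that of Npas2 or of any other member with a window. A core was in 6.45% of the 32851 windows searched. A match describes the letters only and is no evidence of binding.

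Nr1d1, which encodes REV-ERB-alpha, was at 55.0, 56.4, 129 and 142 CPM in batch 2 bleomycin, at 29.4, 25.9, 30.9 and 46.0 CPM in batch 1 bleomycin and at 190, 117, 150, 146 and 140 CPM in saline libraries. Every batch 1 bleomycin library was below every other library, and the batch 2 libraries split, with replicates 3 and 4 inside the saline range and replicates 1 and 2 below it. The batch 1 change was -2.17 ± 0.32 (4.50-fold lower, adjusted p = 0.000451), and -2.40 without replicate 8. In batch 2 bleomycin the change against saline was -0.64 ± 0.30 (adjusted p = 0.142). Nr1d1 shares 263 bases (8.55%) of its exons with Thra on the opposite strand in the GENCODE M21 annotation, and whether counting used strand is not given. Thra, a thyroid hormone receptor gene, was at 81 to 89.9 CPM in batch 1 bleomycin, so the level of Nr1d1 is uncertain, and how many of its counts come from Thra was not measured. Thra changed by -0.28 in batch 1 (adjusted p = 0.042).

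Nr1d2, encoding REV-ERB-beta, varied less within groups. It was at 93.2, 98.6, 114 and 118 CPM in batch 2 bleomycin, at 70.0, 60.1, 45.8 and 73.2 CPM in batch 1 bleomycin and at 188, 215, 196, 186 and 233 CPM in saline libraries. The 3 groups did not overlap, with batch 1 bleomycin lowest and saline highest. The change against saline was -1.71 ± 0.13 in batch 1 (3.27-fold lower, adjusted p = 7.78e-07) and -0.94 ± 0.13 in batch 2 bleomycin (1.92-fold lower, adjusted p = 7.5e-05). Without replicate 8 the batch 1 change was -1.83.

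Per3, the Period gene least needed for rhythms in mice, was at 95.2, 129, 133 and 116 CPM in batch 2 bleomycin, at 41.5, 45.2, 32.6 and 71.2 CPM in batch 1 bleomycin and at 175, 167, 175, 186 and 203 CPM in saline libraries. Its 3 groups were separate, in the same order as those of Nr1d2. The change against saline was -1.93 ± 0.18 in batch 1 (3.80-fold lower, adjusted p = 5.89e-06) and -0.61 ± 0.18 in batch 2 bleomycin (adjusted p = 0.0182, and 0.0621 without bleomycin replicate 1).

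Per2, a main repressor of the loop, was at 76.2, 102, 88.8 and 64.0 CPM in batch 2 bleomycin, at 23.7, 39.1, 25.1 and 62.1 CPM in batch 1 bleomycin and at 99.5, 151, 158, 156 and 187 CPM in saline libraries. Batch 1 bleomycin was below both other groups, and bleomycin replicate 2 passed the lowest saline library. The batch 1 change was -2.0 ± 0.29 (4.00-fold lower, adjusted p = 0.000411), and -2.39 without replicate 8. In batch 2 bleomycin the change against saline was -0.86 ± 0.28 (adjusted p = 0.0412). Leaving out any of 8 libraries took that adjusted p to between 0.0549 and 0.113, and the libraries were bleomycin replicates 1, 3, 4 and 6 and saline replicates 2 to 5.

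Per1, which also responds quickly to signals outside the clock such as cAMP and glucocorticoids, was the member that did not pass in batch 1. It was at 59.3, 123, 109 and 80.3 CPM in batch 2 bleomycin, at 154, 177, 121 and 161 CPM in batch 1 bleomycin and at 141, 167, 166, 168 and 159 CPM in saline libraries. Batch 1 bleomycin spanned the saline range, and batch 2 bleomycin lay below all saline libraries. The change against saline was -0.06 ± 0.17 in batch 1 (adjusted p = 0.816) and -0.78 ± 0.17 in batch 2 bleomycin (1.72-fold lower, adjusted p = 0.00367).

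Per1 and Per2, close in the other groups, differed in batch 1 bleomycin. On a scale corrected for exon length (log2 of CPM per kilobase), Per1 over Per2 was -0.31, 0.32, 0.35 and 0.38 in batch 2 bleomycin, 2.76, 2.24, 2.32 and 1.43 in batch 1 bleomycin and 0.56, 0.20, 0.13, 0.17 and -0.18 in saline libraries. All 4 batch 1 bleomycin libraries were above every other library. Immediate early genes, whose transcripts appear within minutes of a stimulus, were also higher there. Of 14 tested, 11 rose in batch 1 bleomycin against saline, where 17.5% of all tested genes were called higher, among them Junb (1.66), Atf3 (1.93), Fos (1.67) and Zfp36 (1.22). Their summed level was 463 to 588 CPM in batch 2 bleomycin, 713 to 1220 CPM in batch 1 bleomycin and 448 to 524 CPM in saline libraries. Their part in the level of Per1 was not tested.

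The promoters of Per3 and Per1 are shown because they carry different elements of the loop. The motifs capitalized here are the E-box CACGTG, bound by the ARNTL heterodimer, and the D-box TTATGNAA, bound by DBP, TEF, HLF and the repressor NFIL3, on both strands. They were in 7.15% and 3.38% of the 32851 windows. The Per3 window is at chr4:151044616-151044915 on the minus strand and holds a pair of D-boxes, in capitals, 205 and 158 bases before the start.
Per3: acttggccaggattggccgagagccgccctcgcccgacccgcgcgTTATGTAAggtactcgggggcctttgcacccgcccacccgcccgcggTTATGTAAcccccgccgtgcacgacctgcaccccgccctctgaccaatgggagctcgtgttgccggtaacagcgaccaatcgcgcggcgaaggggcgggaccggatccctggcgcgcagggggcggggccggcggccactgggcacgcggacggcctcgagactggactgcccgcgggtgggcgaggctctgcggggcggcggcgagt
RefSeq gives a pair of starts for Per1 as well, and the window of the second held none of these motifs. The window of the first is at chr11:69098699-69098998 on the plus strand. Its capitals mark an E-box 166 bases before the start and a D-box 24 bases before it.
Per1: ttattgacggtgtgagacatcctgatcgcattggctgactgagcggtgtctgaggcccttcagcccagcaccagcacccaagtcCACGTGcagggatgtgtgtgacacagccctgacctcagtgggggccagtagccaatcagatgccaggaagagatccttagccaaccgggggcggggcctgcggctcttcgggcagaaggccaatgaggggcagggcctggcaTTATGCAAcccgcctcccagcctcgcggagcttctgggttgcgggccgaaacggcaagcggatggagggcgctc
Of the 9 members matched in the RefSeq table, Cry1 was the other one whose window held CACGTG, 60 bases before its start. The E-prime-box CACGTT, a variant of the E-box, was also searched on both strands. It was in windows of 3 members, Nr1d1, Cry2 and Cry1, and in 4.68% of all windows. The 9 members had 13 windows among them, so a count of members is not the same measure as a share of windows. The cAMP response element TGACGTCA was in 1.79% of all windows and matched in none of the members' windows.

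Cry2, a repressor of the heterodimer, was at 50.8, 73.0, 83.0 and 63.9 CPM in batch 2 bleomycin, at 45.2, 44.7, 40.3 and 53.5 CPM in batch 1 bleomycin and at 95.3, 112, 115, 113 and 99.3 CPM in saline libraries. Both bleomycin groups were below all saline libraries and overlapped each other. The change against saline was -1.22 ± 0.13 in batch 1 (2.33-fold lower, adjusted p = 6.2e-06) and -0.66 ± 0.13 in batch 2 bleomycin (adjusted p = 0.00122). Cry1, the stronger repressor and the last to peak, had the smallest change of the 6 members called lower in batch 1. It was at 22.9, 19.8, 13.6 and 10.8 CPM in batch 2 bleomycin, at 12.2, 16.3, 8.03 and 15.1 CPM in batch 1 bleomycin and at 14.4, 24.0, 20.0, 21.6 and 23.5 CPM in saline libraries. The means were 16.8 ± 5.54, 12.9 ± 3.69 and 20.7 ± 3.89 CPM in batch 2 bleomycin, batch 1 bleomycin and saline libraries, and the groups overlapped. The batch 1 change was -0.67 ± 0.24 (adjusted p = 0.0406) and was lost without any of bleomycin replicates 5 and 7 and saline replicates 2 to 5 (adjusted p 0.0564 to 0.121). In batch 2 bleomycin it was -0.30 ± 0.24 (adjusted p = 0.377). Without replicate 8 the batch 1 changes were -2.22 for Per3, -1.33 for Cry2 and -0.79 for Cry1, and all 3 passed.

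Taken in the order of their known peaks, the batch 1 changes were 2.68, 2.05 and 0.34 for Arntl, Npas2 and Clock. They were then -2.17 for Nr1d1, -1.71 for Nr1d2, -1.93 for Per3, -0.06 for Per1, -2.0 for Per2, -1.22 for Cry2 and -0.67 for Cry1. The sign changed between the genes known to peak near the end of the night and those known to peak by day, and Cry2 and Cry1 had smaller changes than the other repressors except Per1. This order is set beside the values as a description, with no test of a phase.

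**Figure D2:**
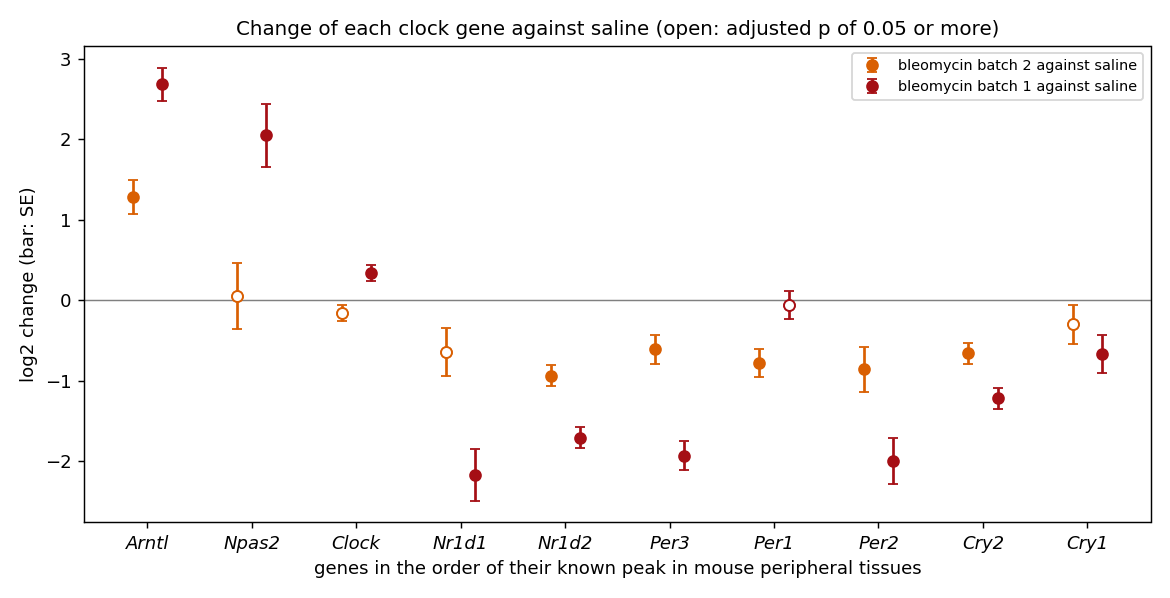
Log2 change against saline (y axis, bars are SE) of each core clock gene, in the order of its known peak in mouse peripheral tissues (x axis), for batch 2 bleomycin and batch 1 bleomycin. Filled points passed an adjusted p of 0.05. Batch 1 changes run from 2.68 for Arntl to -2.17 for Nr1d1, and both series use the same 5 saline libraries.

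In batch 2 bleomycin, 6 members passed the test against saline, 1 higher and 5 lower, where 28.9% of all tested genes passed, 15.7% higher and 13.2% lower. The member called higher was Arntl, and those called lower were Nr1d2, Per3, Per1, Per2 and Cry2. In 5 members the groups did not overlap, against 28.1% of all tested genes. The median of the members was -0.63, against -0.01 over all genes. For 8 of the 10 members the batch 2 bleomycin mean lay between the batch 1 bleomycin mean and the saline mean, Clock and Per1 being the others. Both comparisons share the saline libraries, so their values are not independent.

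Among bleomycin libraries, most clock genes differed between the batches. Of the 10 members, 7 passed the test of batch 2 against batch 1 bleomycin libraries, 4 higher and 3 lower, where 1.68% of all tested genes passed, 0.547% higher and 1.13% lower. The libraries did not overlap in 7 members, against 7.58% of all tested genes. The median of the members was 0.47, against -0.03 over all tested genes. Arntl was lower in batch 2 (-1.40 ± 0.22, adjusted p = 0.00372), as were Npas2 (-2.0 ± 0.43, adjusted p = 0.0258) and Clock (-0.50 ± 0.11, adjusted p = 0.0222). Higher in batch 2 were Nr1d1 (1.53 ± 0.32, adjusted p = 0.0419), Nr1d2 (0.77 ± 0.13, adjusted p = 0.00823), Per3 (1.31 ± 0.19, adjusted p = 0.00342) and Cry2 (0.56 ± 0.13, adjusted p = 0.043).

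The remaining 3 members did not pass. Per2 differed by 1.15 ± 0.30 (adjusted p = 0.089), Per1 by -0.72 ± 0.18 (0.0597) and Cry1 by 0.37 ± 0.25 (0.543). Arntl, Nr1d2 and Per3 passed whichever library was left out. The call of Npas2 was lost without any of bleomycin replicates 1, 2 and 4 to 7 (adjusted p 0.0512 to 0.0875), and that of Clock without any of bleomycin replicates 2, 3, 4 and 6 (0.0559 to 0.096). Nr1d1 was lost without any of bleomycin replicates 3 to 7 and saline replicates 3 to 5 (0.0566 to 0.132), and Cry2 without any of bleomycin replicates 2 to 7 and saline replicates 1, 3, 4 and 5 (0.0516 to 0.169). Per1 passed without bleomycin replicate 1, 2 or 7 (adjusted p 0.0261 to 0.0499). Without replicate 8, 8 members passed, with Per2 at 1.5 (adjusted p = 0.00595), Arntl at -1.52, Npas2 at -2.26, Nr1d1 at 1.73 and Per3 at 1.57. Of the marker lists for 14 cell types, 1 alveolar type 1 marker passed between the batches, higher in batch 2. Over all tested genes 1.68% passed, so few markers would be called at that share. The list medians ran from -0.31 (heart muscle) to 0.59 (red cell), with 0.55 for alveolar type 2 cells. With 4 against 4 libraries, markers that did not pass may still differ. The 4 batch 2 libraries were also the shallower, and batch, depth and collection cannot be told apart.

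The libraries of a group also differed among themselves. Arntl over Nr1d1, as log2 of CPM per kilobase, was -3.14, -3.66, -5.18 and -4.84 in batch 2 bleomycin, -1.11, -1.24, -0.92 and -2.28 in batch 1 bleomycin and -6.34, -6.36, -6.23, -6.52 and -5.89 in saline libraries. The groups did not overlap, saline was the tightest and batch 2 bleomycin the widest. In batch 2 bleomycin, replicates 3 and 4 lay closer to saline than replicates 1 and 2, a split noticed after the values were seen. In batch 1 bleomycin, replicate 8 lay nearest to saline. In CPM it also did so for Arntl, Npas2, Clock, Nr1d1, Nr1d2, Per2, Per3 and Cry2, but not for Cry1.

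Per kilobase of exon, the level order of the genes differed too. Nr1d1 averaged 31.1, 10.7 and 48.3 CPM per kilobase in batch 2 bleomycin, batch 1 bleomycin and saline libraries, and Per1 averaged 16.5, 27.2 and 28.4. Per1 was the highest of the 10 members in all 4 batch 1 bleomycin libraries. In saline libraries Nr1d1 or Nr1d2 was the highest, and Arntl and Npas2 were the lowest pair. Arntl averaged 1.56, 4.09 and 0.634 CPM per kilobase in batch 2 bleomycin, batch 1 bleomycin and saline libraries.

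To ask which members moved together from library to library, Pearson correlations of log2 CPM were computed over the 13 libraries after the mean of each group was removed. Of 45 pairs, 1 passed an adjusted p of 0.05 by exact permutation within groups, and 9 had an unadjusted p under 0.05. Libraries with more Arntl than their group held less Cry2 (r = -0.84, exact permutation p = 0.00101, adjusted p = 0.0456). Spearman's rho for that pair was -0.82 (exact permutation p = 0.0022, adjusted p = 0.0436). Leaving out the 2 libraries farthest from the median of Arntl gave r = -0.84. Within bleomycin (8 libraries) r was -0.91, and within batch 1 (9 libraries) it was -0.82, with unadjusted exact permutation p = 0.00694 and 0.0201. Both sets are parts of the same 13 libraries, so they are not independent of the first result. No pair passed after adjustment in either set.

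Over all 13 libraries r of Arntl was negative with each of the 7 repressors, at -0.22 to -0.84, and it was 0.53 with Clock and 0.18 with Npas2. Apart from Cry2, none of these passed by Pearson's r. By Spearman's rho 3 pairs passed, Arntl with Cry2, Arntl with Per1 (rho -0.81, exact permutation adjusted p = 0.0436) and Per1 with Cry2 (rho 0.87, exact permutation adjusted p = 0.0436). Per3 with Per2 had r = 0.78 and Per1 with Cry2 r = 0.84, both with an exact permutation adjusted p of 0.134. Nr1d1 had r of 0.41 with Nr1d2 and -0.65 with Cry1, which did not pass. Without saline replicate 1, 4 or 5 or any of bleomycin replicates 2 to 7, no pair passed by Pearson's r. Without replicate 8, 1 pair passed.

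**Figure D3:**
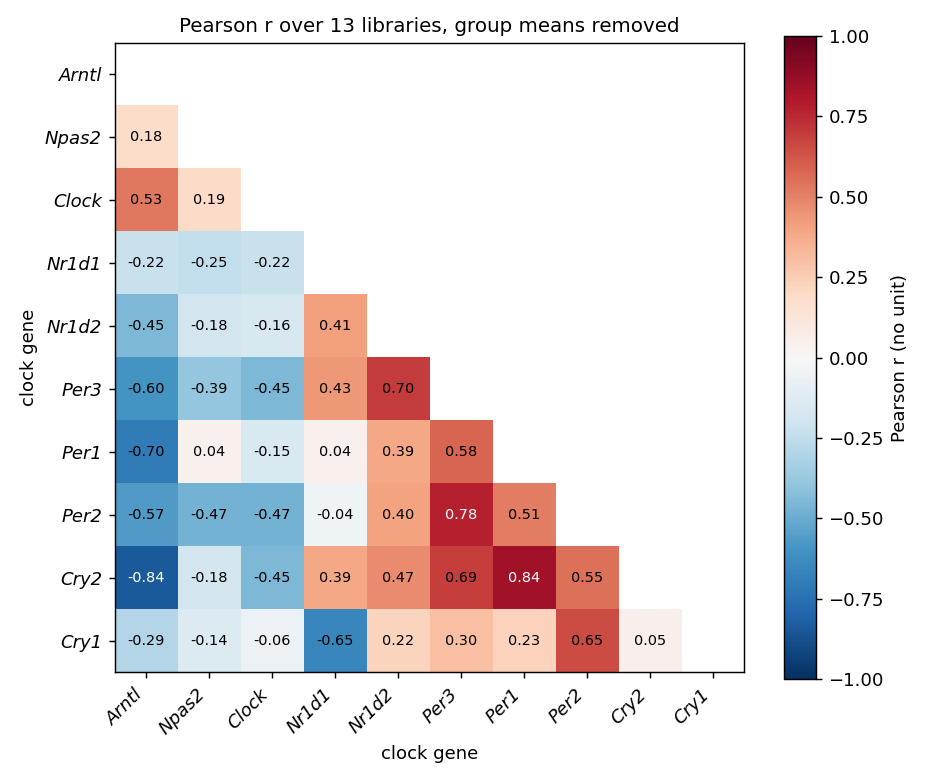
Pearson r of log2 CPM between pairs of core clock genes over 13 libraries, after group means were removed (colour scale from -1 to 1, no unit). Arntl with Cry2 (-0.84) is the pair that passed the adjusted threshold.

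The genes next to the core were described from lists of 27 clock partners and 20 output genes. Of the output genes, 3 rose and 13 fell in batch 1 bleomycin against saline, where 17.5% of all tested genes were called higher and 13.4% lower, with a median of -0.93 over all 20. Dbp, Tef and Hlf encode the activators of D-boxes, and Dbp is a classic E-box target of the ARNTL heterodimer. The promoter windows of Dbp and Hlf held no CACGTG, and those of Tef did. Dbp was at 34.9, 55.0, 90.5 and 89.9 CPM in batch 2 bleomycin, at 7.50, 7.60, 5.43 and 20.7 CPM in batch 1 bleomycin and at 112, 110, 87.3, 87.9 and 98.3 CPM in saline libraries. It was lowest in batch 1 bleomycin, with replicate 8 above the other libraries of that group. The batch 1 change was -3.27 ± 0.43 for Dbp (adjusted p = 0.000251), -2.17 ± 0.17 for Tef (1.28e-06) and -2.79 ± 0.22 for Hlf (1.56e-06). Between batch 2 and batch 1 bleomycin they differed by 2.72, 1.14 and 1.17, and all 3 passed. In batch 2 bleomycin against saline, Tef (-1.03) and Hlf (-1.62) passed and Dbp did not (-0.55 ± 0.38, adjusted p = 0.319).

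Nfil3, whose product represses at the same D-boxes and whose gene is repressed by the Rev-erbs, went the other way. It was at 10.5, 4.90, 5.66 and 4.39 CPM in batch 2 bleomycin, at 16.3, 32.6, 16.0 and 17.6 CPM in batch 1 bleomycin and at 2.64, 2.55, 2.77, 3.02 and 3.24 CPM in saline libraries. The 3 groups did not overlap, in the order seen for Arntl. The batch 1 change was 2.85 ± 0.27 (adjusted p = 2.63e-06). Its promoter window, at chr13:52980990-52981289 on the minus strand, is set beside that of Arntl because both held a ROR element core. Here the core lay 12 bases before the start, in the reverse orientation (TGACCTA, in capitals).
Nfil3: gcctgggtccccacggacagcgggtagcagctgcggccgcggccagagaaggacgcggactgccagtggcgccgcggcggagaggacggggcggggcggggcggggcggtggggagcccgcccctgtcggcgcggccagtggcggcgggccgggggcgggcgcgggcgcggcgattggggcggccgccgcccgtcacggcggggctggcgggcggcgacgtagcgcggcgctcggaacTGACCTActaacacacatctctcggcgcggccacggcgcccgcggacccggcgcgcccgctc

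**Figure D4:**
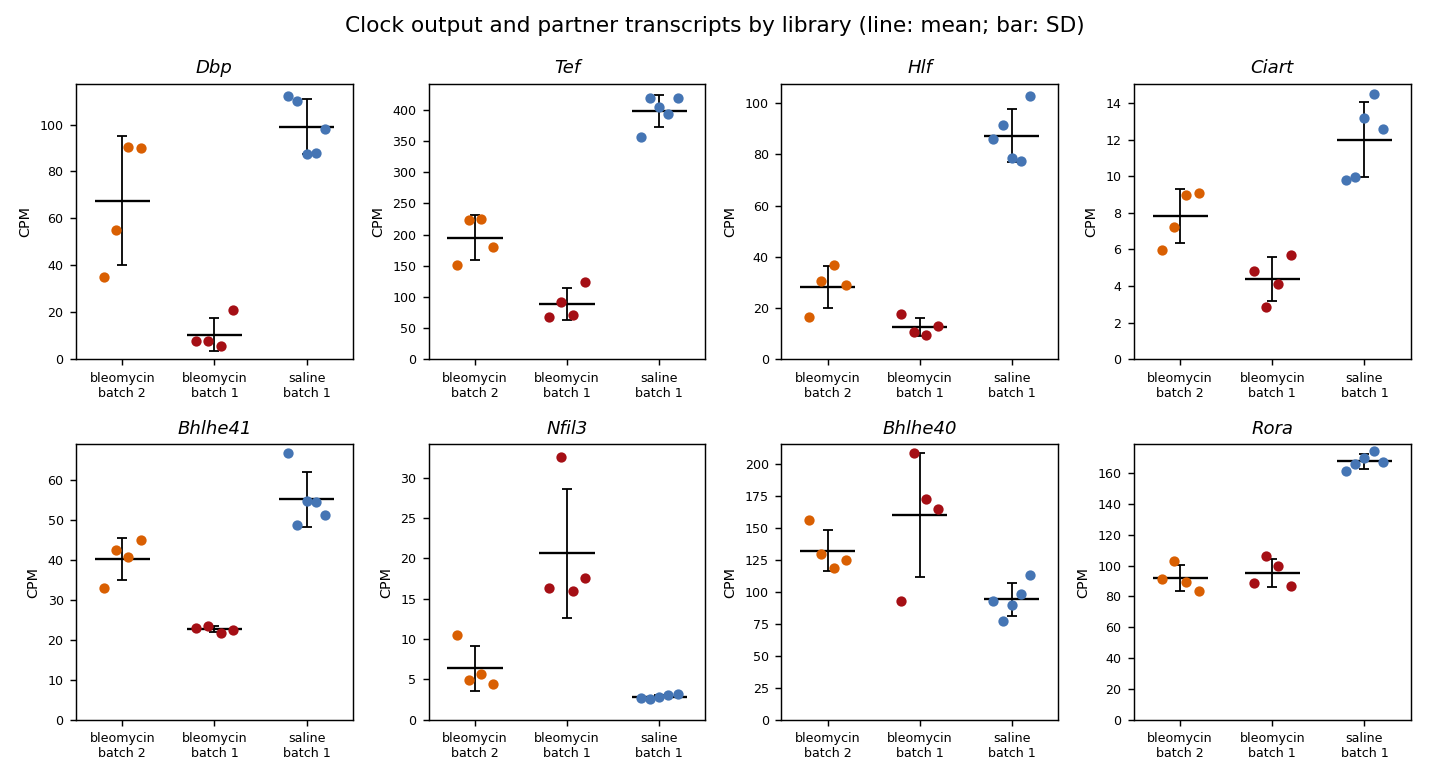
Level in CPM (y axis, from 0) of 8 clock output and partner genes in batch 2 bleomycin, batch 1 bleomycin and saline libraries. Points are libraries, the line is the group mean and the bar the SD. Dbp, Tef, Hlf, Ciart and Bhlhe41 have their lowest means in batch 1 bleomycin, and Nfil3 its highest.

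Of the 27 partners, 7 rose and 9 fell in batch 1 bleomycin against saline, where 17.5% of all tested genes were called higher and 13.4% lower, and their median was -0.04. Among repressors that act at E-boxes, Ciart (-1.46) and Bhlhe41 (-1.28) fell and Bhlhe40 (0.76) rose. Rora, whose product competes with the Rev-erbs for ROR elements, fell by 0.81 on the log2 scale, and Usp2, a deubiquitinase, fell by 1.15. In batch 2 against batch 1 bleomycin, where 1.68% of all tested genes passed, 1 partner did, Bhlhe41 (0.83, adjusted p = 0.00261). Of the 20 output genes, 4 were higher and 1 lower in batch 2 than in batch 1 bleomycin, against 0.547% and 1.13% of all tested genes. Bhlhe41, Ciart and Usp2 are on both lists, so Bhlhe41 is counted in each.

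Cell type markers moved with treatment in the same libraries. Over all tested genes in batch 1, 17.5% were called higher and 13.4% lower. Markers of activated fibroblasts (6 of 8), macrophages (7 of 8) and B and plasma cells (5 of 6) were called higher. Those of alveolar fibroblasts (8 of 8), ciliated cells (7 of 8), alveolar type 2 cells (5 of 8) and club cells (5 of 7) were called lower. Smooth muscle (4 of 7) and alveolar type 1 markers (4 of 8) were also called lower, and of 9 capillary markers 4 were lower and 1 higher. Of neutrophil, T cell and red cell markers, 3 of 5, 3 of 7 and 2 of 5 were called higher, and of heart muscle markers 0 of 7. Summed alveolar fibroblast markers were 1220 to 1890, 1100 to 1630 and 2270 to 2720 CPM in batch 2 bleomycin, batch 1 bleomycin and saline libraries. Summed activated fibroblast markers were 5120 to 14300, 3510 to 14400 and 1160 to 1350 CPM, and summed macrophage markers 2450 to 2920, 1900 to 2250 and 1450 to 1810 CPM. Most of the macrophage sum was Lyz2, which averaged 2110, 1460 and 1430 CPM and was not called in batch 1 (0.03). The median change of the macrophage list was 2.23 in batch 1 and -0.15 in batch 2 against batch 1 bleomycin. Summed alveolar type 2 markers were 3740 to 9150, 2930 to 5680 and 6770 to 8770 CPM. Heart muscle markers were also present, at 127 to 3220, 706 to 4680 and 764 to 1230 CPM. No marker of these lists was at 0 in every library. The part of cell composition in the levels of the clock genes was not tested.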

How the data were processed

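RNA was extracted from formalin-fixed, paraffin-embedded lung sections and made into stranded total RNA libraries, per the labels' protocols. The authors deposited whole-number counts per gene symbol, without normalization, for 13 libraries. Cutadapt 4.4, STAR 2.7.10b, featureCounts 2.0.3, DESeq2 1.42.1 and the mm39 build are named in the submitters' processing notes, and neither the strand setting nor any use of molecular identifiers is given there. Of the counts from 1 to 10, 78.41% to 86.09% were even per library, which would follow if featureCounts took read pairs as 2 reads. A normalized signal deposited by the authors is the same counts over size factors of 0.394 to 1.94. It gave back whole reads, within 0.05, for 99.979% of its values and served only for alternatives.

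Counts were scaled by TMM, filtered with filterByExpr over the 3 groups (20468 genes kept) and tested with robust quasi-likelihood fits (edgeR 4.0.16, R 4.3.3), with p adjusted by Benjamini-Hochberg. The 3 groups shared an estimate of the spread. Alternatives used DESeq2 1.42.0 and limma 3.58.1. Relations used log2 CPM with a prior count of 2 and all 69120 permutations within groups. Exon lengths came from GENCODE M21 and promoter windows from RefSeq on GRCm38.p6, both matched by symbol, and no coordinates were converted. An exon length covers all annotated exons of a gene, merged over its transcripts. Levels per kilobase compared between genes depend on that choice. Each test was tried on simulated data. Over 38 library pairs of like treatment, chi-square divided by its degrees of freedom was at least 9.18, far above sampling noise.

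All 10 members are named in every comparison, with up to 4 genes per list by lowest p for batch 1 and 9 output and partner genes whatever their value, apart from a gene that is not reported here. Lyz2 is named outside that rule, for its share of the macrophage sum. The members, lists, rule and tests were chosen with earlier results of these data known. The alternative on recovered reads was chosen after seeing the data.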

Additional observations from a re-analysis of the deposited data

Results flagged for a closer look

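Among 57 sets of 4 or 5 libraries checked for a library far from its group, 2 stood out, and chance gives about 1 in 20. Dbp in bleomycin replicate 8 was at 20.7 CPM, against 5.43 to 7.60 CPM in the other batch 1 bleomycin libraries. Nfil3 in bleomycin replicate 6 was at 32.6 CPM, against 16.0 to 17.6 CPM in the others. The comparison of batch 2 with batch 1 bleomycin already described, which is also the difference between their changes against saline, passed edgeR's test for 7 clock genes, against 1.68% of all tested genes. The difference was -1.40 for Arntl, -2.0 for Npas2, -0.50 for Clock, 1.53 for Nr1d1, 0.77 for Nr1d2, 1.31 for Per3 and 0.56 for Cry2 on the log2 scale. The calls of Npas2, Clock, Nr1d1 and Cry2 were lost with limma-voom and without some single libraries.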

How the results depend on the processing

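The counts of calls for batch 2 bleomycin against saline stayed within 1.5 times under every alternative run. Among 30 changes of the clock genes, recomputed 650 times, 570 kept their direction and their side of the threshold, 69 lost and 7 gained a call, and 4 turned. Those were Npas2 in batch 2 bleomycin against saline, at -0.30 without bleomycin replicate 3, -0.16 without saline replicate 3 and -0.06 without saline replicate 4, and Per1 in batch 1, at 0.04 without bleomycin replicate 7, with ranges over left-out libraries of -0.30 to 0.27 for Npas2 and -0.14 to 0.04 for Per1. None of these had passed. The causes were not tested.

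Between the bleomycin batches, 343 genes passed, against 737 with DESeq2, 102 with limma-voom (74 higher and 28 lower, against 112 and 231) and 85 with protein-coding genes only. Of the clock genes 7 passed, against 9 with DESeq2, 3 with limma-voom and 4 with protein-coding genes only. With DESeq2 Per2 (adjusted p = 0.000732) and Per1 (0.00712) passed as well. Leaving out each library gave 148 to 1093 genes and 3 to 8 clock genes, the highest without replicate 8. In batch 1 it gave 5123 to 6546 genes and 7 to 9 clock genes. Grouping replicate 8 as saline, as its title says, left 645 genes in batch 1, with Arntl at 2.07, Per3 at -2.03 and Per2 at -2.20, and all but Per1 and Cry1 passed (adjusted p of 0.81 and 0.135). Without a batch term, Npas2 (1.40, adjusted p = 0.074), Clock (0.12, 0.526) and Cry1 (-0.48, 0.0831) did not pass. For relations, no pair passed (0) with RLE size factors, in the 8 bleomycin libraries or in the 9 batch 1 libraries, and leaving out each library gave 0 to 1.

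Replicate numbers did not pair the libraries: same-numbered libraries had correlations of -0.35 to 0.04, and 0 of 5 numbers matched best with themselves. With the numbers as a replicate block, 39 genes and 3 clock genes passed in batch 1, where bleomycin and saline share a single number, and 4755 genes and 6 clock genes passed in batch 2 bleomycin against saline. Depth limits Npas2 and Arntl most, with as few as 12 and 30 counts. If read pairs were taken as 2 reads, fewer fragments than that lie behind these counts.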

Other observations

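The genes most like Arntl from library to library, by Pearson r over the 13 libraries with group means removed and among 12015 genes of at least 5 CPM, were Det1 (0.93), Plekhg1 (0.88), P2ry2 (0.87), Arl15 (0.87) and Ddah1 (0.86). Those that ran most against it were Cops7a (-0.91), Ulk3 (-0.89), Brd7 (-0.87), Tsc22d4 (-0.86) and Sult1a1 (-0.85). Among all 20467 other tested genes, Cry2 stood 10th from the lowest r with Arntl, and Tef stood 92nd. The genes most like Nr1d1 were Rnf167 (0.94), Uimc1 (0.84), Cfap58 (0.83), Rnf31 (0.83) and Hdac7 (0.82), and Dbp stood 74th of 20467 (0.75). Running most against Nr1d1 were Dnajb9 (-0.92), H3f3a (-0.90), Kif11 (-0.89), Cdc25a (-0.88) and Ccna2 (-0.88), where Kif11, Cdc25a and Ccna2 are genes of the cell division cycle. These are descriptions chosen from many genes, with no test.

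Glucocorticoid-induced genes, which include targets that follow the daily rise of corticosterone, moved in both directions. Of 13 tested, 4 rose and 4 fell in batch 1 bleomycin against saline, where 17.5% of all tested genes were called higher and 13.4% lower, with Lcn2 at 2.09 and Sgk1 at 0.83, and Klf9 at -1.13 and Zbtb16 at -1.98. In batch 2 against batch 1 bleomycin 3 of them were lower by edgeR's test, against 1.13% of all tested genes. Of 13 genes listed as cycling in most mouse organs, 2 rose and 10 fell in batch 1, against the same shares of all tested genes, with a median of -1.15.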
